A study of Arabidopsis thaliana with 36 samples.

Results

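Hypocotyls and roots of the ground control plants were compared on 10 of the 36 Affymetrix ATH1 arrays of this Arabidopsis thaliana series, 5 arrays from each organ. The members were chosen by label and organ, as all arrays titled ground control hypocotyls or ground control roots, and the comparison covered 22746 of the 22810 probe sets on the array, those left out being hybridization controls. RNA of several pooled plants went onto each array, with 1 pool from plate 2, 2 pools from plate 4 and 2 pools from plate 6. All plants were 12 days old and had grown upright under light on solid medium, in the chamber hardware also used on orbit, here inside an environmental simulator on the ground, and were fixed in RNAlater before dissection.

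Both organs came from the same mixture of plants. The labels give the cultivar as WS and Col-0, with WS as the larger share, and the plants carried 1 of 3 green fluorescent protein reporters, driven by the alcohol dehydrogenase promoter, by the synthetic auxin response element DR5 or by a constitutive viral promoter. The hypocotyl sample was the piece of stem between the root and shoot junction and the base of the rosette, and leaves of the same plants, cut at the petiole base, were used for comparison where stated. The matching 5 hypocotyl and 5 root arrays of the flight plants, grown on orbit for the same time, entered side by side. Hypocotyl and root arrays with the same plate and replicate number were paired and are taken as 1 pool, which the labels do not state outright. Values are listed in the order plate 2, plate 4 replicates 1 and 2, plate 6 replicates 1 and 2.

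The hypocotyl is the embryonic stem that joins the root to the shoot. In light it is green, its epidermis carries a cuticle and stomata, and by the seedling stage its vascular cylinder starts to thicken through a cambium, a dividing layer that gives xylem to the inside and phloem to the outside. The root takes up water and mineral ions through an epidermis that bears hairs, and an endodermis with a lignified Casparian strip and suberin lamellae controls what enters the vascular cylinder.

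Values are signals, in linear intensity units that were scaled to the same trimmed mean on every array, and gene levels are comparable between arrays but not between probe sets. A difference is the mean over the 5 pools of log2 hypocotyl signal minus log2 root signal, so that 1 on this scale is 2-fold, and a probe set is called where the adjusted p of the paired limma fit over all probe sets is under 0.05. Of the 22746 probe sets, 2424 (10.7%) were called higher in hypocotyls and 2889 (12.7%) lower, and the median difference over all probe sets was -0.02. The signals of the 5 hypocotyl arrays and the 5 root arrays did not overlap for 5547 probe sets (24.4%), whether called or not. Among the calls, 2413 of the higher and 2866 of the lower probe sets had the same direction in all 5 pools. The calls were made from these same pool differences, so the counts are no separate evidence of consistency. The lower calls were larger, with a median of -1.94 against 1.22 for the higher calls, and 804 of them were at least 8-fold against 243 of the higher calls. Differences ran from -9.71 to 7.67. Arrays of an organ correlated with r of 0.932 to 0.970 in hypocotyls and 0.939 to 0.978 in roots over the better measured 60% of probe sets, and a hypocotyl array correlated with a root array with r of 0.696 to 0.813. Because each array is a bulk sample, fewer cells of a type and less RNA per cell cannot be told apart in any of these values.

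The organ labels were checked against marker genes. Of 11 root markers (root hair, endodermis, root cap and root epidermis genes), 10 were called lower in hypocotyls and NRT2.1, at -1.44 (adjusted p = 0.179), was not called. The summed signal of the 11 markers was 197 to 370 on the hypocotyl arrays and 5476 to 18987 on the root arrays. Among the root arrays, the pool of plate 2 and the first pool of plate 6 had the lowest sums, 5476 and 7985, against 13817 to 18987 in the other 3. The same 5 arrays also differed in green tissue genes, LHCB5 and PSBO1. Their sum was 5184 in the first pool of plate 6, above the 1997 to 3586 of the other 3. In the pool of plate 2 it was 3494, within that range. Of 10 leaf markers, 4 were called higher in hypocotyls than in roots, 1 lower and 5 not called. Their summed signal was 15503 to 24387 in hypocotyls, 1203 to 2974 in roots and 89532 to 113625 in leaves, and nearly all of it came from LHCB3, LHCA1 and RCA, which green stem tissue also expresses. Of the other 7, EPFL9 was called higher in hypocotyls, with 54.4 to 112 there, 5.82 to 28.2 in roots and 2020 to 3191 in leaves. KAT1 was called lower, and BCA1, TMM, MYB60, YAB1 and YAB5 were not called. BCA1, a carbonic anhydrase also on the carbon fixation list, read 1.63 to 28.9 in hypocotyls against 6391 to 12099 in leaves, YAB1, a leaf polarity regulator, 3.76 to 22.5 against 304 to 504, and KAT1, a guard cell potassium channel, 1.36 to 16.7 against 146 to 315. TMM, a receptor of stomatal patterning, read 8.53 to 33.9 in hypocotyls against 120 to 288 in leaves, YAB5, a relative of YAB1, 18.8 to 44.6 against 274 to 378, and MYB60, a guard cell MYB, 15.4 to 73.2 against 38.8 to 104, overlapping.

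The genes on 28 lists of pathways, tissues and cell types gave 495 genes with a probe set of their own. The lists fell on both sides of the median of all probe sets: most genes of light harvesting, carbon fixation and chlorophyll synthesis were called higher in hypocotyls, while most genes of root hairs, root meristem and root cap, Casparian strip, suberin, mineral uptake, iron acquisition and root triterpenes were called lower.

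**Figure D1:**
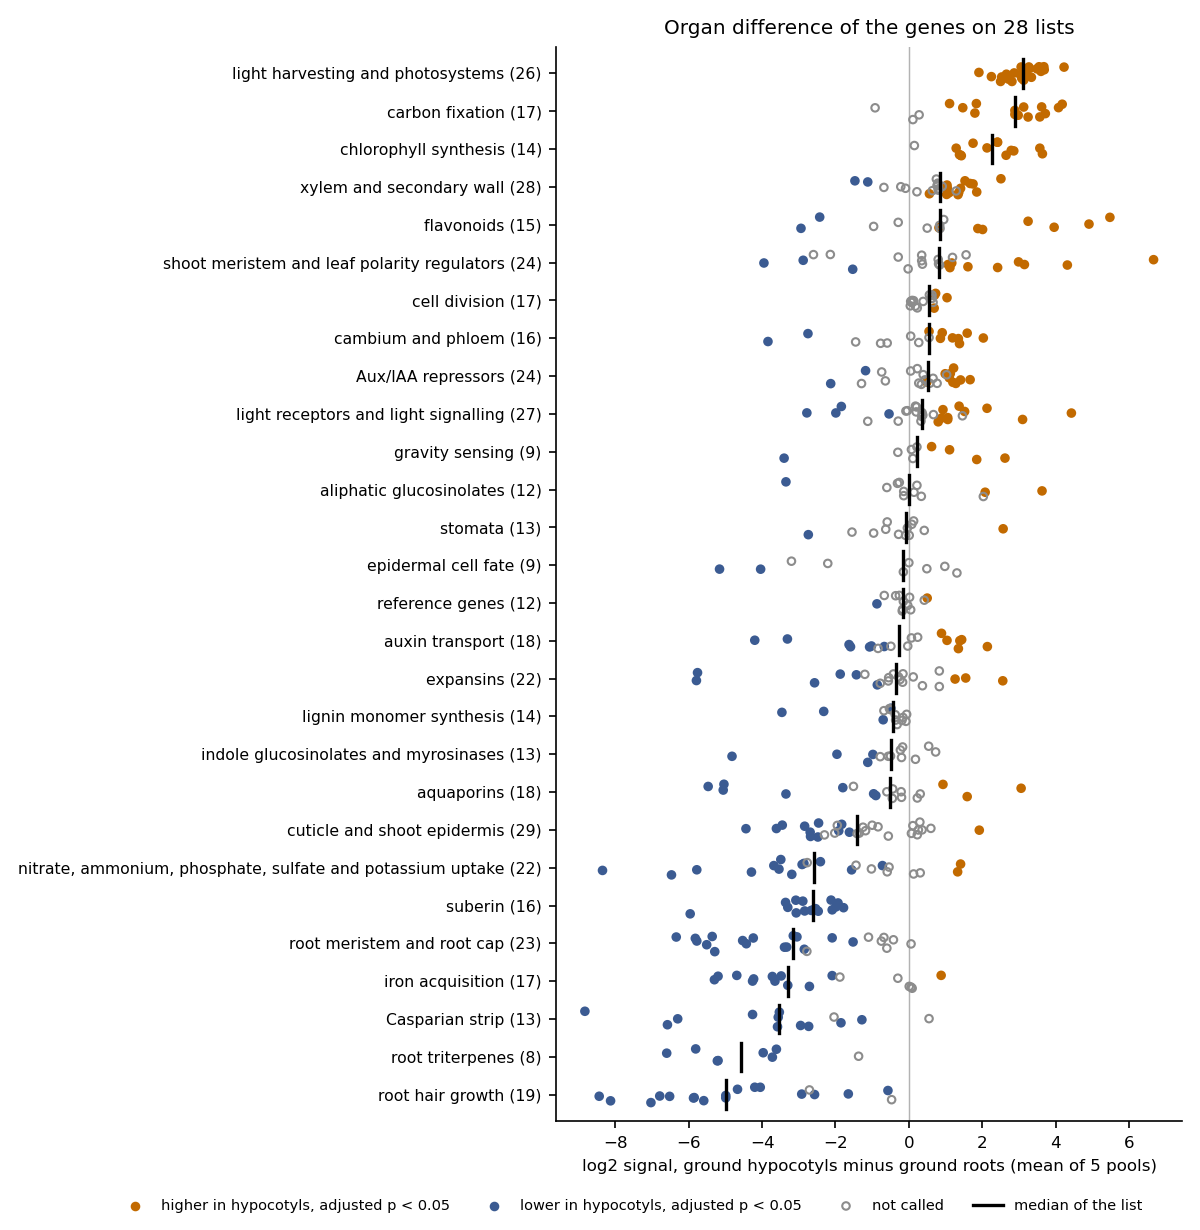
Difference of log2 signal between ground hypocotyls and ground roots (x axis, mean of 5 pools) for each gene of 28 lists (rows, number of genes in brackets, ordered by median). Filled points are called at adjusted p under 0.05, open points are not, and the bar is the median of the list, which runs from -4.99 for root hair growth to 3.11 for light harvesting and photosystems.

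Photosynthesis genes were higher in hypocotyls throughout. All 26 measured members of the light harvesting and photosystem list were higher in hypocotyls, against 10.7% of all probe sets, with differences of 1.91 to 4.23 and a median of 3.11, and none overlapped with roots. LHCA1, a light harvesting protein of photosystem I, had signals of 7587, 7615, 6271, 8834 and 9330 in hypocotyls and 659, 459, 421, 987 and 672 in roots, which differed by 3.69 (standard error, SE, 0.18, adjusted p = 0.000754). The same gene read 25650 to 33925 in leaves, so that the hypocotyl lay between root and leaf. PETE1, a plastocyanin that carries electrons to photosystem I, had the largest difference of the list, 4.23 (SE 0.16, adjusted p = 0.000754), and LHCA3 and PSBQ2, a subunit of the oxygen evolving complex, differed by 3.53 and 3.49.

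Enzymes that build chlorophyll and fix carbon moved with the photosystems. In chlorophyll synthesis 13 of 14 genes were higher (92.9%, against 10.7% of all probe sets), with a median of 2.27. Among them were PORB, a light dependent protochlorophyllide reductase, at 3.57 (adjusted p = 0.000898), CHLH, a magnesium chelatase subunit, at 2.86 (adjusted p = 0.000811), PORC at 2.79 and CHLM, a methyltransferase of the same path, at 2.13. In carbon fixation and photorespiration 14 of 17 genes were higher (82.4%, against 10.7% of all probe sets), with a median of 2.89. Among them GAPA1 and GAPB, the chloroplast glyceraldehyde phosphate dehydrogenases, differed by 3.13 and 2.89. FBA1, an aldolase, differed by 3.57 and HPR1, a peroxisomal hydroxypyruvate reductase, by 3.62. The 3 uncalled genes include BCA1 at -0.92 (adjusted p = 0.376), which is abundant in leaves and close to the floor in both other organs. Against leaves these lists ran the other way, with median differences of -1.78 for light harvesting, -2.26 for carbon fixation and -1.26 for chlorophyll synthesis.

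Of 27 light receptor and light signalling genes, 10 were higher in hypocotyls (37.0%) and 4 lower (14.8%), against 10.7% and 12.7% over all probe sets. Leaving out 1 pool left 2 or 3 lower. PIF5, a bHLH factor that phytochromes destabilize, was higher at 4.43 (adjusted p = 0.00535), or 1.69 with an offset of 34.9 (the 25th percentile of all signals) added before log2 because its root signals were at the floor. Also higher were GLK2, a regulator of chloroplast development, at 2.13 (adjusted p = 0.00489), and PHOT1, a blue light receptor of phototropism, at 1.37 (adjusted p = 0.00669). ELIP1, an early light induced protein of thylakoids, read 58.8, 39.2, 51.6, 37.7 and 54.9 in hypocotyls and 358, 276, 352, 308 and 348 in roots, which differed by -2.78 (SE 0.13, adjusted p = 0.000754). All 5 root arrays were above all 5 hypocotyl arrays. NPH3, a partner of phototropins, was also lower in hypocotyls at -1.84 (adjusted p = 0.0022), as was HY5, a bZIP factor that promotes light responses, at -0.54 (adjusted p = 0.0464). HFR1 was lower at -1.99 (adjusted p = 0.0304), or -0.71 with the offset, with low and overlapping signals. ELIP1 and NPH3 were below the leaf level as well, by -2.87 and -3.20. The leaf signals of ELIP1 varied widely, with a mean of 585 and a standard deviation of 786, against 778 and 81.5 for NPH3.

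The genes with the largest positive differences were led by genes known from defence and lipid transfer. AT5G55450 (chromosome 5, 22467337 to 22468306, TAIR10.1), which the deposited annotation places in lipid transport and response to other organisms, read 404, 498, 526, 1914 and 2186 in hypocotyls and 3.07, 6.24, 1.89, 3.03 and 11.5 in roots. Both pools of plate 6 were higher in hypocotyls than the other 3 pools. Its difference was 7.67 (SE 0.44, adjusted p = 0.000831), and since the root signals were at the floor, the offset of 34.9 reduced it to 4.48.

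PR5, a thaumatin-like pathogenesis-related protein, had signals of 1656, 2010, 958, 1914 and 3336 in hypocotyls and 7.84, 5.08, 5, 13.1 and 46.4 in roots, which differed by 7.46 (SE 0.36, adjusted p = 0.000754), or 5.27 with the offset. BGL2, the pathogenesis-related beta-1,3-glucanase also called PR2, had signals of 6621, 7689, 4897, 4869 and 6546 in hypocotyls and 102, 42.4, 13.2, 102 and 84 in roots, which differed by 6.79 (SE 0.47, adjusted p = 0.00109), or 5.98 with the offset. Both genes are standard markers of salicylate responses. In leaves BGL2 read 275 to 575, so its hypocotyl level was above both other organs, whereas PR5 read 451 to 1547 in leaves and did not pass the test of both organs (adjusted p = 0.498).

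Further genes among the 10 largest were BAM5, a beta-amylase of the phloem, at 5.97 (adjusted p = 0.0014), AT5G22460 at 5.94 (adjusted p = 0.00412), the lipid transfer protein LTP4 at 5.92 (adjusted p = 0.00433), AT5G58390, annotated under hydrogen peroxide breakdown, at 5.76 (adjusted p = 0.00297), and AT1G52000 at 5.37 (adjusted p = 0.00171). BAM5, AT5G22460, AT5G58390 and AT1G52000 did not pass the test against both organs, and their hypocotyl minus leaf differences were -0.86, -0.15, -2.05 and -1.30. With the offset, these 5 differences were 3.72, 3.92, 4.67, 2.87 and 2.73.

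**Figure D2:**
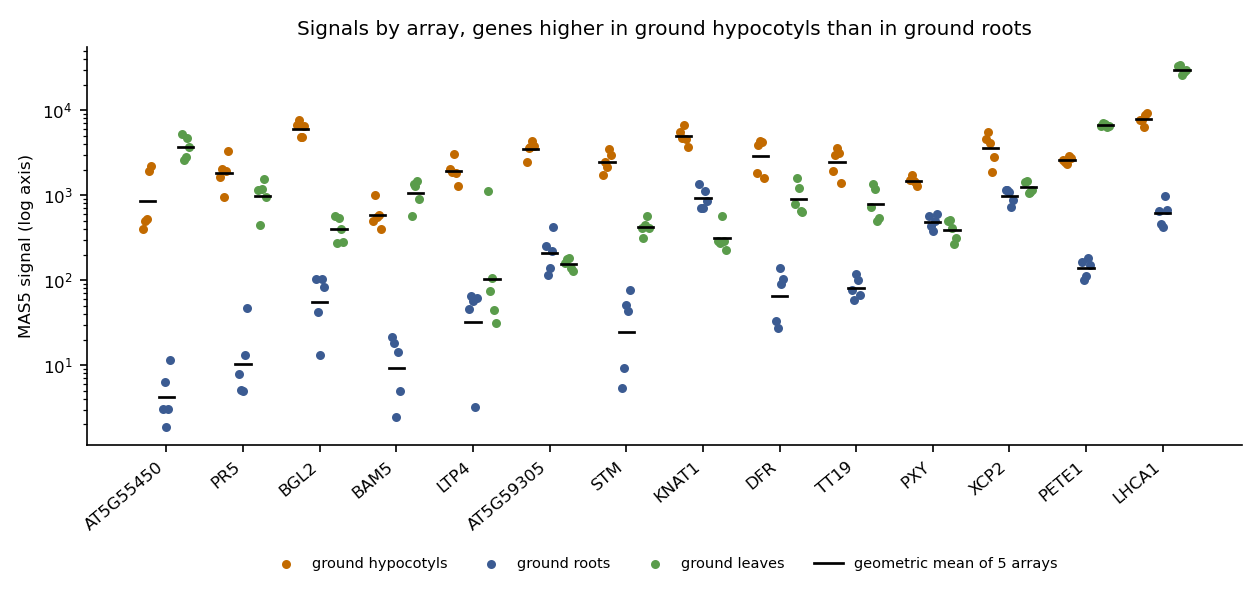
Signals (y axis, log scale) of 14 genes higher in ground hypocotyls, each point 1 array (5 hypocotyl, 5 root and 5 leaf arrays) and each bar the geometric mean. Root points lie below all hypocotyl points for each gene shown; in BGL2, LTP4, AT5G59305, STM, KNAT1, DFR, TT19, PXY and XCP2 the hypocotyl points are also above all leaf points, while PETE1 and LHCA1 are below them.

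Several regulators of the shoot meristem were higher in hypocotyls. STM, the homeodomain factor that maintains the shoot meristem (chromosome 1, 23058582 to 23062063), had signals of 1735, 2432, 2132, 3490 and 2965 in hypocotyls, 5.42, 9.27, 50.8, 43.4 and 76.6 in roots and 315 to 573 in leaves. Its difference from roots was 6.67 (SE 0.56, adjusted p = 0.00155), or 5.23 with the offset, and it passed the test against both organs (adjusted p = 0.0226). Its relatives of the same homeodomain class were higher too, KNAT1 at 2.42 (adjusted p = 0.0022), KNAT2 at 4.32 and KNAT6 at 2.99 (adjusted p = 0.0211 for each), or 2.81 and 2.19 with the offset. ATH1, a BELL homeodomain protein, was higher at 3.15 (adjusted p = 0.00168) and BOP2, a regulator of organ boundaries, at 1.61 (adjusted p = 0.00239). Of the 24 meristem and leaf polarity genes, 9 were higher (37.5%, against 10.7% of all probe sets) and 3 lower, with a median of 0.83. CLV3, the peptide made by meristem stem cells, was near the floor in all organs, with mean signals of 4.20 in hypocotyls, 18.8 in roots and 4.73 in leaves, and was not called (-2.14, adjusted p = 0.104). The cut at the base of the rosette lies next to the shoot apex, and how much apical tissue the hypocotyl samples held was not tested.

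The lower genes of this list, 3 of 24 (12.5%) against 12.7% of all probe sets, are leaf growth regulators of the TCP family, TCP3 at -1.53, TCP4 at -3.95 and TCP10 at -2.88 (adjusted p = 0.00253, 0.0162 and 0.0108), or -1.14, -1.62 and -1.05 with the offset. TCP4 and TCP10 had low signals in both organs. All 3 were also below their leaf level, with hypocotyl minus leaf differences of -2.65, -4.96 and -4.80, and TCP10 signals overlapped between hypocotyl and root arrays.

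Flavonoid genes differed in both directions, 7 of 15 (46.7%) being higher in hypocotyls, 2 (13.3%) lower and 6 not called. Over all probe sets 10.7% were higher and 12.7% lower, so the lower share was near that of all probe sets. DFR, dihydroflavonol reductase and the entry to anthocyanins, had signals of 1833, 3853, 4352, 4227 and 1604 in hypocotyls and 33.3, 27.4, 140, 89.1 and 103 in roots, which differed by 5.48 (SE 0.46, adjusted p = 0.00152). TT19, a glutathione transferase that carries anthocyanins to the vacuole, differed by 4.91 (SE 0.22, adjusted p = 0.000754), PAP1, the MYB activator of the branch, by 3.25 (adjusted p = 0.00242) and TT8, its bHLH partner, by 3.96 (adjusted p = 0.00905), or 1.42 with the offset. UGT78D1, a flavonol rhamnosyltransferase, was higher too, with 322 to 422 in hypocotyls and 56.6 to 141 in roots (2.01, adjusted p = 0.00465). The lower genes were FLS1, flavonol synthase, and MYB12, a MYB activator of flavonols. FLS1 read 30.6 to 143 in hypocotyls and 546 to 948 in roots, a difference of -2.94 (adjusted p = 0.00388), and MYB12 differed by -2.43 (adjusted p = 0.000821). The early enzymes that feed both branches were not called: CHS at 0.50 (adjusted p = 0.193), CHI at 0.95 (adjusted p = 0.0645) and F3H at 0.84 (adjusted p = 0.075).

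Xylem genes were moderately higher. Of 28 genes for xylem and secondary walls, 13 were higher (46.4%) and 2 lower (7.1%), with a median of 0.86. The shares over all probe sets were 10.7% and 12.7%. Without the pool of plate 2, the first pool of plate 4 or the second pool of plate 6 the higher genes numbered 7. XCP2, a protease of xylem vessels, had signals of 4589, 5572, 4154, 1872 and 2818 in hypocotyls and 1164, 1163, 1083, 725 and 874 in roots, which differed by 1.85 (SE 0.17, adjusted p = 0.00203). The 2 hypocotyl pools of plate 6 were the lowest but stayed above all root arrays. The related XCP1 differed by 1.53 (adjusted p = 0.00365) and the xylan gene IRX9 by 1.34 (adjusted p = 0.00656). VND7, a master switch of vessel formation, read 129 to 210 in hypocotyls and 46.4 to 97.8 in roots (adjusted p = 0.038). Of the 3 cellulose synthases of secondary walls, CESA8 was higher at 1.04 (adjusted p = 0.00854) and CESA7 at 1.36 (adjusted p = 0.0158), the latter with overlapping signals, while CESA4, with 740, 711, 584, 224 and 474 in hypocotyls and 325, 275, 348, 330 and 237 in roots, was not called at 0.75 (adjusted p = 0.151). The hypocotyl signal of CESA4 in the first pool of plate 6 was below all 5 root signals. The lower genes were FRA8 at -1.47 (adjusted p = 0.0029) and MYB63, an activator of lignin genes, at -1.12 (adjusted p = 0.0213). FRA8 signals overlapped between organs, with 65.2 to 262 in hypocotyls and 177 to 618 in roots.

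Enzymes that make the lignin monomers were not higher along with the xylem genes. All 14 measured genes were negative, from -3.46 to -0.06, and 4 of them were called lower (28.6%), against 12.7% of all probe sets. Leaving out any pool but that of plate 2 left 2 called, PAL4 and CAD4, and over all alternative settings the count was 2 to 8. PAL4, a phenylalanine ammonia lyase, differed by -3.46 (adjusted p = 0.000811), CAD4, a cinnamyl alcohol dehydrogenase, by -2.32 (adjusted p = 0.00157), C3H1 by -0.70 (adjusted p = 0.0154) and CCOAOMT1 by -0.49 (adjusted p = 0.045).

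The cambium list held 8 higher (50.0%) and 2 lower genes (12.5%) among 16, with a median of 0.55. The shares over all probe sets were 10.7% and 12.7%. PXY, the receptor kinase of the cambium, had signals of 1526, 1745, 1456, 1393 and 1287 in hypocotyls, 568, 436, 382, 491 and 595 in roots and 269 to 511 in leaves. The difference was 1.59 (SE 0.18, adjusted p = 0.00355), and its peptide ligand CLE41, which comes from the phloem, was higher at 1.35 (adjusted p = 0.00419). PP2-A1, a phloem lectin, was higher at 2.03 (adjusted p = 0.00142). AHP6, an inhibitor of cytokinin signalling first described in root protoxylem, was lower at -3.84 (adjusted p = 0.00586) and SWEET11, a sucrose exporter of leaf phloem, at -2.75 (adjusted p = 0.00807), or -1.20 and -2.25 with the offset, AHP6 with low signals in both organs. The genes ATHB8, ATHB15, PHB, PHV and REV, which make up the class III homeodomain leucine zipper family and were named after their values had been seen, were each higher in hypocotyls than in roots, by 0.91, 1.38, 1.12, 1.17 and 1.07, and each passed the test against roots and leaves together.

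Auxin carriers differed in both directions. Of 18 genes, 6 were higher (33.3%) and 7 lower (38.9%), against 10.7% and 12.7% over all probe sets. Among the higher genes were PIN3 (1.35, adjusted p = 0.00788) and PIN6 (1.44, adjusted p = 0.0111), which export auxin, and the importers AUX1 (0.89, adjusted p = 0.0147), LAX1 (2.14, adjusted p = 0.00257) and LAX2 (1.39, adjusted p = 0.0364). PIN3 read 1522, 1960, 1310, 1170 and 1022 in hypocotyls and 708, 485, 463, 524 and 526 in roots. PIN2, the exporter of the root epidermis, was lower at -3.31 (adjusted p = 0.0157), and so were the importer LAX3 (-1.59, adjusted p = 0.00749) and the exporter ABCB4 (-1.63, adjusted p = 0.00216). PILS5, a carrier of the endoplasmic reticulum, had the largest difference of the list, with 170 to 363 in hypocotyls and 3171 to 6531 in roots (-4.20, adjusted p = 0.000754).

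The Aux/IAA proteins repress auxin responses. Of 24 genes, 9 were higher (37.5%) and 2 lower (8.3%), with a median of 0.53. Over all probe sets 10.7% were higher and 12.7% lower, so the lower share was below that of all probe sets. IAA27 differed by 1.67 (adjusted p = 0.00427), IAA26 by 1.41 (adjusted p = 0.00562), IAA12 by 1.28 (adjusted p = 0.00653) and IAA3 by 1.13 (adjusted p = 0.00481). The lower members were IAA14 at -2.13 (adjusted p = 0.00808) and IAA28 at -1.18 (adjusted p = 0.025), both known for their role in lateral root formation.

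Of 9 genes of gravity sensing, 4 were higher in hypocotyls (44.4%) and 1 lower (11.1%). Over all probe sets 10.7% were higher and 12.7% lower, so the lower share was near that of all probe sets. LZY1, known from shoot gravitropism, had signals of 189, 206, 109, 297 and 175 in hypocotyls and 18.4, 27.1, 55.1, 49.7 and 18.8 in roots, which differed by 2.62 (SE 0.38, adjusted p = 0.00766). LZY3, known from root gravitropism, had signals of 13.3, 8.22, 8.9, 1.35 and 20.3 in hypocotyls and 108, 85.9, 117, 50.5 and 65.4 in roots, which differed by -3.40 (SE 0.50, adjusted p = 0.00768). Neither gene overlapped between organs, but LZY3 had low signals in both and LZY1 in roots, and with the offset the differences were 1.73 for LZY1 and -1.39 for LZY3. ADG1 (1.85, adjusted p = 0.00602) and PGM1 (1.11, adjusted p = 0.00839), which make the starch of statoliths and of other plastids, were higher.

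Root hair genes had the lowest median of all lists, -4.99. Of 19 genes, 17 were lower in hypocotyls (89.5%, against 12.7% of all probe sets) and 0 higher. RHS19, a peroxidase of root hair cells, had signals of 4.08, 3.13, 4.36, 2.37 and 2.55 in hypocotyls and 284, 1121, 1570, 792 and 1478 in roots, which differed by -8.13 (SE 0.46, adjusted p = 0.000821). PRP3, a proline-rich wall protein of root hairs, differed by -8.44 (adjusted p = 0.00366), COW1, a phosphatidylinositol transfer protein needed for hair tip growth, by -7.03 (adjusted p = 0.00114) and CPC, a small MYB that promotes hair fate, by -2.92 (adjusted p = 0.00167). Hypocotyl signals of RHS19, PRP3 and COW1 were at the floor, and the offset reduced their differences to -4.62, -5.85 and -3.52. GL2 and WER, which specify hairless cells in the root epidermis and act in the hypocotyl epidermis too, were lower as well, GL2 with 3.87 to 6.35 in hypocotyls and 51 to 120 in roots (-4.04, adjusted p = 0.000754) and WER at -5.16 (adjusted p = 0.00597), or -1.63 and -2.43 with the offset, while TTG1, which acts with them, was not called at 0.49 (adjusted p = 0.0625). These 2 lower genes (22.2%, against 12.7% of all probe sets) were the calls among 9 epidermal fate genes. Of the 9, 7 had a low signal in both organs, GL2 among them.

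Genes of the endodermal barriers were high in roots. Of 13 Casparian strip genes, 11 were lower in hypocotyls (84.6%, against 12.7% of all probe sets), with a median of -3.53. CASP2, a scaffold protein of the strip (chromosome 3, 3638178 to 3639348), had signals of 3.35, 1.97, 4.08, 1.78 and 2.9 in hypocotyls and 550, 2099, 2393, 670 and 1486 in roots, which differed by -8.83 (SE 0.39, adjusted p = 0.000754), or -5.07 with the offset. Its relative CASP1 read 27.8 to 75.4 in hypocotyls and 2420 to 7863 in roots, a difference of -6.58 (adjusted p = 0.000941). ESB1, a dirigent protein of the strip, differed by -4.26 (adjusted p = 0.000984) and SGN3, the receptor kinase that monitors its integrity, by -3.53 (adjusted p = 0.000754). The 2 root pools with the lowest root marker sums, to which both genes contribute, were also the lowest for CASP1 and CASP2, and the part of this spread in the difference was not tested.

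Suberin genes were all lower, 16 of 16, against 12.7% of all probe sets, with a median of -2.62. FAR4, a reductase that makes fatty alcohols for suberin, had signals of 167, 194, 202, 168 and 130 in hypocotyls and 1072, 1880, 1631, 1193 and 1538 in roots, which differed by -3.07 (SE 0.18, adjusted p = 0.000831). FAR5 differed by -3.08 (adjusted p = 0.000754), the transporter ABCG6 by -3.36 (adjusted p = 0.000811) and CYP86B1, a fatty acid hydroxylase, by -2.89 (adjusted p = 0.000857). MYB39, a MYB activator of suberin synthesis, differed by -5.96 (adjusted p = 0.000984), or -1.87 with the offset, and had low signals in both organs. Against leaves the median of the suberin list was 1.75, and FAR4 read 1.28 to 32.9 in leaves, below its hypocotyl signals on all arrays.

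Regulators of the root tip and of lateral roots were lower for 16 of 23 genes (69.6%, against 12.7% of all probe sets). The median was -3.15, and 0 were higher. SCR, a GRAS factor of the endodermis, had signals of 26.7, 39, 54.6, 24.5 and 54.5 in hypocotyls and 282, 475, 515, 371 and 379 in roots, which differed by -3.39 (SE 0.20, adjusted p = 0.000831), and it read 322 to 488 in leaves. AGL42, a MADS box factor of the quiescent centre, differed by -5.36 (adjusted p = 0.00171), MGP, a zinc finger target of SCR, by -5.78 (adjusted p = 0.00203) and LBD16, which starts lateral roots, by -3.15 (adjusted p = 0.00254). With the offset these 3 differences were -3.47, -2.61 and -2.19. PLT1 and PLT2, which maintain root stem cells, were low in both organs, with mean root signals of 58.3 and 44, and were not called (adjusted p = 0.201 and 0.118).

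**Figure D3:**
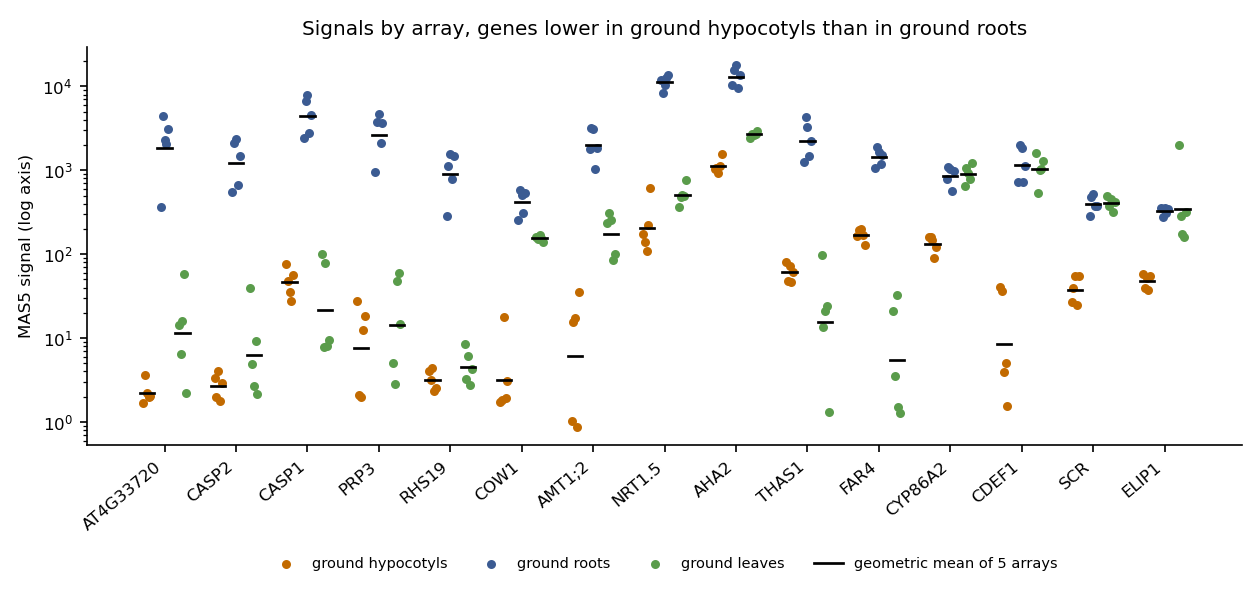
Signals (y axis, log scale) of 15 genes lower in ground hypocotyls, each point 1 array (5 hypocotyl, 5 root and 5 leaf arrays) and each bar the geometric mean. Hypocotyl points lie below all root points for each gene; for COW1, AMT1;2, AHA2, CYP86A2, CDEF1, SCR and ELIP1 they lie below all leaf points as well.

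Mineral uptake genes were lower for 13 of 22 members (59.1%) and higher for 2 (9.1%), with a median of -2.59. The shares over all probe sets were 12.7% lower and 10.7% higher. NRT1.5, which loads nitrate into the xylem, had signals of 174, 139, 110, 222 and 610 in hypocotyls and 11908, 8412, 10517, 12550 and 13605 in roots, which differed by -5.78 (SE 0.32, adjusted p = 0.000811). AMT1;2, an ammonium transporter, had signals of 1.04, 15.7, 17.5, 0.881 and 35.4 in hypocotyls and 1777, 3185, 3100, 1042 and 1833 in roots, which differed by -8.35 (SE 0.80, adjusted p = 0.00213), or -5.44 with the offset. AHA2, the main plasma membrane proton pump of roots, differed by -3.54 (adjusted p = 0.000984), SULTR1;2, a sulfate importer, by -4.29 (adjusted p = 0.00142) and NRT3.1, a partner of the high affinity nitrate transporters, by -3.68 (adjusted p = 0.00193). Higher in hypocotyls were NRT1.8, which retrieves nitrate from the xylem, at 1.41 (adjusted p = 0.00451) and SULTR2;1, a sulfate carrier of vascular tissue, at 1.33 (adjusted p = 0.00524).

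Of 17 genes for iron and copper acquisition, 11 were lower (64.7%) and 1 higher (5.9%), with a median of -3.30. The shares over all probe sets were 12.7% lower and 10.7% higher. F6'H1, which makes coumarins that mobilize iron, read 92 to 187 in hypocotyls and 1436 to 4178 in roots (-4.26, adjusted p = 0.00174), and FRD3, a citrate exporter, differed by -3.48 (adjusted p = 0.0011). FIT, the bHLH regulator of iron uptake, and IRT1, the iron importer, differed by -5.30 and -4.23 (adjusted p = 0.00625 and 0.0288), with mean root signals of 174 and 148, and by -2.21 and -1.84 with the offset. FER4, a ferritin, was the higher gene at 0.88 (adjusted p = 0.00797).

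Water channels differed by isoform. Of 18 genes, 3 were higher (16.7%) and 7 lower (38.9%), against 10.7% and 12.7% over all probe sets. TIP2;2 read 62.9 to 118 in hypocotyls and 1389 to 6293 in roots (-5.47, adjusted p = 0.000984), TIP4;1 differed by -5.04 (adjusted p = 0.000867) and NIP1;1 by -5.06 (adjusted p = 0.0054), or -3.39 with the offset. In the other direction, PIP2;6 read 2349 to 4028 in hypocotyls and 255 to 524 in roots (3.06, adjusted p = 0.00139), TIP2;1 differed by 1.59 (adjusted p = 0.00586) and PIP1;4 by 0.93 (adjusted p = 0.00673). The hypocotyl minus leaf differences of TIP2;1 and PIP1;4 were 0.06 and 0.02.

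Root triterpene genes were lower for 7 of 8 members (87.5%, against 12.7% of all probe sets), with a median of -4.58. The thalianol genes THAD, THAH and THAS1 lie within a stretch of chromosome 5 (19434758 to 19461706) and differed by -5.20, -3.97 and -5.22 (adjusted p = 0.000984, 0.00141 and 0.0011). THAS1, the thalianol synthase, had signals of 81.6, 47.7, 73.1, 47 and 60.9 in hypocotyls and 1259, 4280, 3301, 1477 and 2231 in roots. CYP71A16 of the marneral path, also on chromosome 5 (17031024 to 17033800), differed by -5.81 (adjusted p = 0.000984) and MRN1, the marneral synthase on the same chromosome, by -3.72 (adjusted p = 0.00443).

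The remaining genes among the 10 most negative were AT4G33720 at -9.71, the cell wall gene AT3G28550 at -8.81, BS1, an atypical bHLH protein, at -8.19, the peroxidase gene AT5G66390 at -8.06, AT3G29410 at -8.04 and AT1G52790 at -7.98 (adjusted p = 0.000754, 0.00161, 0.00416, 0.00375, 0.000811 and 0.000811). AT4G33720 (chromosome 4, 16182743 to 16183619) read 1.66 to 3.64 in hypocotyls and 361, 4388, 2296, 2043 and 3064 in roots. With the offset these 6 differences were -5.69, -5.21, -4.50, -5.07, -6.52 and -3.97.

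Of 29 genes of cuticle and shoot epidermis, 11 were lower in hypocotyls than in roots (37.9%), 1 was higher (3.4%) and 17 were not called. These shares stand against 12.7% lower and 10.7% higher over all probe sets. The median of the list was -1.41, and 13 of the 29 had a low signal in both organs. CYP86A2, a hydroxylase of cutin monomers, had signals of 160, 162, 149, 89.7 and 122 in hypocotyls, 784, 1080, 1023, 563 and 971 in roots and 653 to 1228 in leaves, a difference from roots of -2.69 (SE 0.15, adjusted p = 0.000821). GPAT4 (-2.84, adjusted p = 0.00206) and GPAT8 (-1.91, adjusted p = 0.0024), acyltransferases of cutin, and KCS1 (-2.46, adjusted p = 0.00161), an enzyme that elongates fatty acids, followed. CER1, an enzyme of wax alkanes, and PDF1, an epidermal gene, were lower at -4.44 and -3.61 (adjusted p = 0.0166 and 0.012), or -2.35 and -2.81 with the offset. LTP1, a lipid transfer protein of the epidermis, was higher, with 1496 to 2316 in hypocotyls and 381 to 799 in roots (1.92, adjusted p = 0.00245), though far below its 27699 to 42614 in leaves. Among 13 stomatal genes 11 were not called, 1 was higher and 1 lower, 7.7% each, against 10.7% and 12.7% over all probe sets. EPFL9, a peptide that promotes stomata, was higher at 2.57 (adjusted p = 0.0149), or 1.25 with the offset. KAT1 was lower at -2.74 (adjusted p = 0.0129), or -0.62 with the offset, with low and overlapping signals.

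Expansins, which loosen walls, had 3 higher (13.6%) and 6 lower genes (27.3%) among 22, against 10.7% and 12.7% over all probe sets. EXPA11 read 2.71 to 8.35 in hypocotyls and 203 to 387 in roots (-5.79, adjusted p = 0.000811), or -2.91 with the offset, and EXPB1, EXPA15 and EXLB1 differed by -2.57, -1.43 and -1.87 (adjusted p = 0.00189, 0.00292 and 0.00313). EXPA5, EXPA6 and EXLA2 were higher at 2.56, 1.26 and 1.55 (adjusted p = 0.0101, 0.00617 and 0.004), EXPA5 with low signals in both organs and a difference of 1.18 with the offset. In mitosis and replication 4 of 17 genes were higher (23.5%) and 0 lower, against the same 10.7% and 12.7% of all probe sets. Among the 4 were CYCD3;1, a D-type cyclin, at 1.04 (adjusted p = 0.012) and KN, the syntaxin of the cell plate, at 0.73 (adjusted p = 0.0214). The count of 4 ran from 0 to 8 over the alternative settings, and was 1 without any of 4 of the pools and 3 without the first pool of plate 6. In flight 1 of the 17 was called higher and 0 lower, where 8.82% of all probe sets were higher.

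Of 12 genes for aliphatic glucosinolates, 2 were higher, 1 lower and 9 not called, against 10.7% and 12.7% over all probe sets. MYB29, an activator of the aliphatic branch, was higher at 3.63 (adjusted p = 0.00266), and FMOGS-OX1, a side chain oxygenase, at 2.08 (adjusted p = 0.0111). MAM3, which elongates side chains, was lower, with 931, 160, 830, 1059 and 1037 in hypocotyls and 8270, 6093, 5689, 7404 and 6998 in roots (-3.35, adjusted p = 0.00491). The first pool of plate 4 was the lowest for MAM3 in hypocotyls. Of 13 genes for indole glucosinolates and myrosinases, 0 were higher, 4 lower (30.8%) and 9 not called, against the same 10.7% and 12.7%. CYP81F4, an indole hydroxylase, was lower at -1.96 (adjusted p = 0.00641) and PYK10, a beta-glucosidase of root endoplasmic reticulum bodies, at -1.12 (adjusted p = 0.0106). Of 12 reference genes, 10 were not called, while ACT2 was lower at -0.87 (adjusted p = 0.0197) and UBQ11 higher at 0.50 (adjusted p = 0.0385). The calls of UBQ11 and, among the genes above, of HY5 and CCOAOMT1 were lost whichever of the 5 pools was left out, and that of HFR1 without any pool but the second of plate 4.

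A difference from the root may be shared with leaves, so hypocotyls were also tested against both organs at once on the 15 ground organ arrays. A probe set passed where the hypocotyl differed from root and from leaf in the same direction, with the larger of both p-values adjusted over all probe sets. Above both were 574 probe sets (2.52%) and below both 466 (2.05%). From the xylem list 8 of 28 genes were above both (CESA8, IRX9, IRX15, CTL2, FLA12, LAC4, XCP1 and XCP2), and from the cambium list 5 of 16 (PXY, ATHB8, ATHB15, MOL1 and CLE41). Of 18 auxin carriers, 5 were above both (among them PIN3, AUX1, LAX1 and LAX2), as were 5 of 24 Aux/IAA genes (IAA9, IAA12, IAA13, IAA26 and IAA27). From the photosynthesis, carbon fixation and chlorophyll lists, 0 genes were above both. Below both were, among others, 11 of 29 cuticle genes, 4 of 18 aquaporins, 2 of 18 auxin carriers (ABCB19 and PILS2), 2 of 16 cambium and phloem genes (SUC2 and SWEET11) and 1 of 24 Aux/IAA genes (IAA14).

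The highest genes of this test were BGL2, LTP4, AT2G15780, AT5G59305 and AT5G53810. LTP4 had signals of 2028, 1867, 3023, 1798 and 1281 in hypocotyls and 45.8, 64.7, 56.5, 3.21 and 60.9 in roots. In leaves it read 1106, 74.9, 107, 43.9 and 31.2, the pool of plate 2 being high, and the test against both organs gave an adjusted p = 0.0222. AT5G59305 lies next to LTP4 on chromosome 5 (23923184 to 23923929, with LTP4 at 23924990 to 23925957) and read 2464, 3540, 3708, 4312 and 3826 in hypocotyls, 114 to 420 in roots and 128 to 180 in leaves (adjusted p = 0.000212). AT2G15780 was above roots by 4.96 and above leaves by 6.48 (adjusted p = 0.00892).

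The lowest were CDEF1, COW1, EXPA11, AT1G22335 and AT1G54120. CDEF1, a cutinase, had signals of 41, 36.4, 3.9, 5.11 and 1.56 in hypocotyls, 731, 1989, 1866, 717 and 1123 in roots and 541 to 1607 in leaves, and its differences were -7.09 from roots, or -4.60 with the offset, and -6.91 from leaves (adjusted p = 0.00161). AT1G54120 differed by -6.35 from roots, or -3.04 with the offset, and by -6.40 from leaves (adjusted p = 6.06e-05). For both genes the root and leaf signals lay above all hypocotyl signals.

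**Figure D4:**
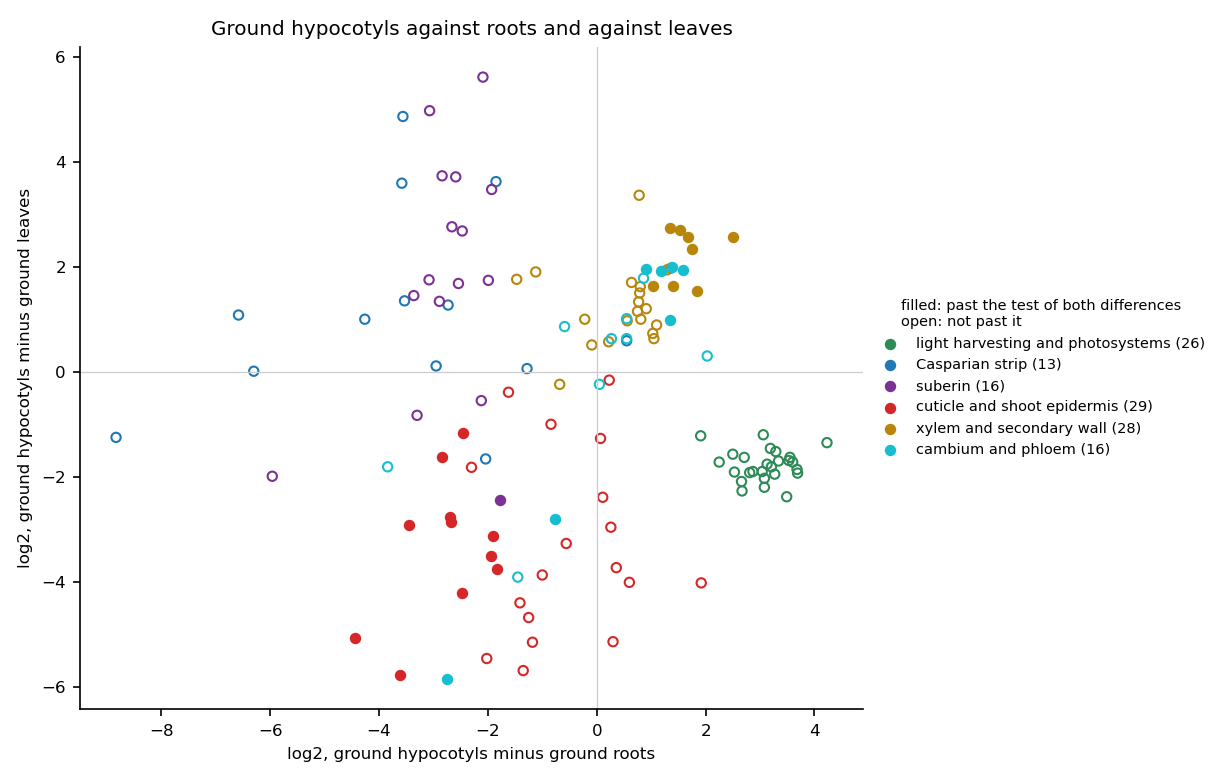
Log2 difference of ground hypocotyls from ground roots (x axis) and from ground leaves (y axis) for the genes of 6 lists (number of genes in brackets). Xylem and cambium genes lie mostly above 0 on both axes, photosynthesis genes to the right of and below 0, cuticle genes mostly below 0 on the y axis, and suberin and Casparian strip genes nearly all to the left of 0.

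The same contrast in the flight plants, which share no plants with the ground control, gave 2007 probe sets higher in hypocotyls (8.82%) and 2478 lower (10.9%). Of the ground calls, 1513 of 2424 higher and 1913 of 2889 lower were called in the same direction in flight, 0 and 1 in the opposite direction, and 97.8% and 97.9% had the same sign, against 76.4% of all probe sets. Over 13647 better measured probe sets, the differences in ground and flight correlated with r of 0.95 and rho of 0.87, a description across probe sets that share array design and processing. In flight, STM differed by 7.07 (adjusted p = 0.00107), BGL2 by 5.42 (adjusted p = 0.00107), LHCA1 by 3.63 (adjusted p = 0.00107), CASP2 by -8.07 (adjusted p = 0.00107) and NRT1.5 by -4.80 (adjusted p = 0.00121). The xylem list had 18 higher and 0 lower genes in flight against 13 and 2 on the ground, and the flavonoid list 3 higher and 5 lower against 7 and 2. DFR and TT19 were higher in flight too, at 4.19 and 3.56 (adjusted p = 0.0118 and 0.00245), while CHS differed by -1.32 in flight and by 0.50 on the ground. A term for the difference between both contrasts, tested over the 20 arrays by limma, called 0 probe sets, with a smallest adjusted p of 0.184. At an unadjusted p under 0.05 were 1306 of 22746 probe sets. A share of about 0.05 falls under that cut with no difference at all.

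**Figure D5:**
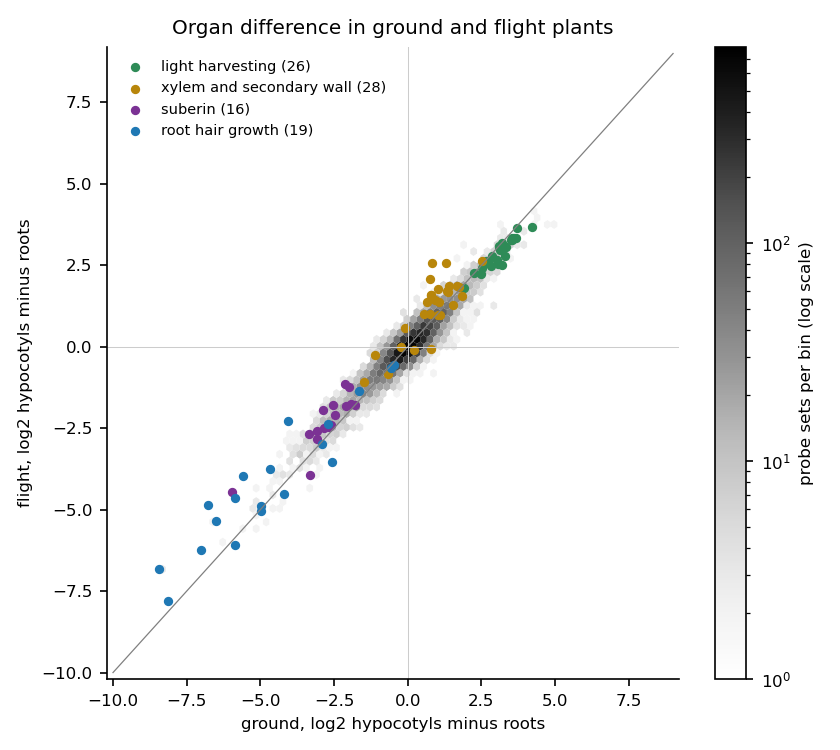
Log2 difference of hypocotyls and roots in ground plants (x axis) and in flight plants (y axis). Grey bins count the 13647 better measured probe sets on a log scale, coloured points are the genes of 4 lists (number in brackets) at any signal level, and the line marks equal differences, near which most probe sets lie (r of 0.95).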

How the data were processed

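The files held Affymetrix ATH1 signals of 36 arrays, of which the 10 ground hypocotyl and root arrays carried the main comparison and the 5 ground leaf arrays and 10 flight hypocotyl and root arrays entered where named. The deposited values are linear intensity values from MAS5, run by the authors in Affymetrix software, the Expression Console, whose version is not given in the sources used here. MAS5 corrects background and scales each array by itself to a common trimmed mean. Signals near 0 are poorly determined under this method, so large differences of genes at the floor depend on it. RNA was amplified before labelling, and the number of arrays limits the precision. Deposited tables of the authors' own comparisons of flight and ground (fold changes, p-values and q-values) were not used, apart from their gene annotation. Array columns of the table that could not be assigned to a sample numbered 0.

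Signals were log2 transformed with no offset and fitted by limma 3.58.1 in R 4.3.3 with the plant pool as a fixed block, over 22746 probe sets with Benjamini-Hochberg adjustment and a threshold of 0.05. The script was tested on simulated data. In each of 3 simulated runs, 200 of the 22746 probe sets were changed. There, 25.9% of differences of 1 on the log2 scale were called, 82.1% of those of 2 and 92.4% of those of 3. In the data 5313 probe sets were called, and the adjusted p cut is stricter where fewer probe sets differ. The simulated rates therefore cannot give the sensitivity of the comparison itself. A gene not called may still differ. Pairing rests on the plate and replicate number that organs share in the labels, which do not state outright that equal numbers are the same pooled plants. Deviations of paired arrays from their organ means correlated with r of 0.0691, 0.0472, 0.0934, 0.138 and 0.135. In 3 of the 5 pools the hypocotyl array correlated better with a root array of another pool (0.1022, 0.1135 and 0.2127 for the second to the fourth pool). The root arrays of both pools of plate 4 and of the second pool of plate 6 correlated better with a hypocotyl array of another pool. Only in the pool of plate 2 was each array closest to its partner. Whether replicates of a plate were separate pools in every respect is not given, so p-values measure the spread between these samples. Hypocotyls against both other organs were fitted on 15 arrays, and the difference between ground and flight on 20. The methods of the study give a test for flight against ground only. Alternatives covered the block, plate means, normalization, offset, a filter on low signals, the variance model, the methods' t-test and each pool left out.

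Members and lists were chosen with earlier results of these data known. Named were the 10 largest differences in each direction among called, non-overlapping probe sets of 1 gene with a signal in the upper 60% in the higher organ, up to 4 genes of each list with the smallest p, and the 5 highest and 5 lowest against both organs under the same conditions. Further list members given as examples were chosen after their values were seen. A gene was read from its probe set with the highest mean, and names and coordinates came from the deposited annotation and RefSeq (TAIR10.1), which held 20977 of 21447 loci with a probe set of their own. Promoter motifs were not analysed here. A result that needs a withheld item is not reported here.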

Additional observations from a re-analysis of the deposited data

Results flagged for a closer look

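Among the genes named above, 1 array stood apart from the other 4 of its group in 22 of 382 gene and organ groups tested (5.8%) by Dixon's ratio above 0.71, where chance gives about 1 in 20. In 10 of the 22 it was the first pool of plate 6. No cause was tested.

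In hypocotyls, the high arrays were ACT2 at 7162 against 6369 to 6509 in the others and AT2G15780 at 3349 against 1838 to 2079 (first pool of plate 4), AT1G54120 at 7.62 against 2.44 to 3.25 and SWEET11 at 308 against 43.5 to 74.2 (first pool of plate 6), COW1 at 17.6 against 1.75 to 3.08 (second pool of plate 4) and BS1 at 57.7 against 1.04 to 3.24 (second pool of plate 6). The low arrays were MAM3 at 160 against 830 to 1059 (first pool of plate 4), CPC at 31.4, IAA26 at 1346 and LTP1 at 1496 (second pool of plate 4), and ATHB15 at 2614, FAR5 at 60.2, IAA12 at 543, PIN2 at 7.38 and SGN3 at 70 (first pool of plate 6).

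In roots, CYP71A16 was low at 297 against 1035 to 1468 and FRD3 high at 1043 against 951 to 959 in the pool of plate 2, and in the first pool of plate 4 ADG1 was low at 214 against 352 to 431 and YAB5 at 1.24 against 15.6 to 38.6. In the first pool of plate 6, LTP4 was low at 3.21 against 45.8 to 64.7, AT1G52000 high at 36.2 against 3.16 to 5.1 and FER4 high at 450 against 311 to 344.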

How the results depend on the processing

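Without the replicate block, 3092 probe sets were higher and 3558 lower in hypocotyls, against 2424 and 2889 with the pairing, and 731 and 558 were above and below both organs. Leaving out each pool gave 1443 to 1685 higher and 1925 to 2151 lower, 1207 to 1290 and 1634 to 1811 in flight, and 259 to 351 above and 244 to 298 below both organs. Means per plate gave 881 higher and 1360 lower, and they use 3 pairs in place of 5. The filter on low signals tested 13647 probe sets and gave 952 above both organs, and 55.6% of its calls between hypocotyl and root were higher against 45.6%, and it removed most root hair and root meristem genes, of which it left 4 called in each list. Quantile normalization moved the median of all probe sets by 0.11 and the share of higher calls to 52.1%, and scaling to the 75th percentile to 42.3%.

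None of the 181 called genes among 203 followed through the alternatives changed direction where an alternative gave a value, the filter on low signals having values for 131 of the 181. Lost calls numbered 44 with plate means, 13 to 24 without a pool, 6 with quantile normalization and 0 to 3 otherwise. Calls lost when any of 4 or more of the pools was left out included those of C3H1, CCOAOMT1, CESA7, HFR1, HY5, IAA28, IRT1, IRX15, KN, LAX2, MYB63, UBQ11 and VND7 among the genes named above. Uncalled genes that changed sign were TMM (0.02 with plate means, 0.38 with quantile normalization, -0.50 to 0.59 without a pool), MYB60 (0.42 with quantile normalization, 0.00 with the offset, -0.60 to 0.24 without a pool) and SLAC1 (-1.16 to 0.30 without a pool). The cause of these changes was not tested. Promoter motifs were not run. Low signals set the limit: under 88.8 in hypocotyls and 107 in roots a signal was counted as low, and 149 of the higher and 539 of the lower calls had one in the higher organ.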
